A study of Mus musculus with 25 samples.

Results

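Collagens, the ADAMTS metalloproteinases and the lysyl oxidases build, cleave and cross-link the extracellular matrix, and their transcripts were followed in whole mouse colon through dextran sulfate sodium (DSS) colitis. Members were taken by gene symbol: every Col gene with a chain number, every Adamts gene with a number, and Lox with Loxl1 to Loxl4. The array carried 68 such genes, and 54 of them (34 collagens, 15 ADAMTS genes and 5 lysyl oxidases) had a probe well above background on at least 3 of 25 arrays. They are 54 of the 25496 genes or unnamed probes that passed this filter.

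RNA came from female mice aged 8 weeks on the C57BL/6J background, wild type (WT) or Card9-/-, the latter lacking an adaptor protein of fungal recognition. DSS, a sulfated sugar polymer that injures the colon epithelium, was given at 2% w/v in the drinking water for 7 days, and plain water followed for 5 days. The 6 groups were WT and Card9-/- before DSS (day 0, 3 arrays each), when DSS stopped (day 7, with 5 arrays for WT and 4 for Card9-/-) and after recovery (day 12, 5 arrays each), with 1 mouse per array. The design names 5 Card9-/- mice at day 7, of which 1 is not analysed here. By the series title, the study concerned how CARD9 shapes colitis through microbial tryptophan products.

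As background, fibrillar collagens are secreted as procollagens whose end pieces are trimmed off before they assemble into fibres. ADAMTS2, ADAMTS3 and ADAMTS14 remove the N-terminal piece, while ADAMTS1, ADAMTS4, ADAMTS5, ADAMTS8, ADAMTS9 and ADAMTS15 belong to the branch that cuts large proteoglycans such as versican and aggrecan. Lysyl oxidases then oxidise lysines so that neighbouring chains cross-link. Type IV collagens form the sheet under epithelium and vessels, type VI forms beaded filaments, and type VII anchors the epithelial basement membrane to the tissue beneath.

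Levels below are log2 of the processed spot signal minus the 75th percentile of that array, so negative values are common and values of different genes cannot be set against each other. Each difference is in log2 units and carries its standard error (SE) from 1 limma model of the 25 arrays. Calls needed an adjusted p under 0.05, by Benjamini and Hochberg's method over every gene tested. Because whole tissue was measured, fewer cells of a type and less RNA per cell cannot be told apart.

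The arrays were checked before the members were compared. The Card9 probe lay between -1.52 and -0.48 on the arrays labelled Card9-/- and between -6.84 and -2.93 on those labelled WT, so it was brighter where the gene is labelled as lost. The sources used here do not give the deleted part of the gene, and each direction between genotypes below rests on the labels. All 9 epithelial, 8 of 8 fibroblast and 7 of 8 smooth muscle markers were well above background on every array. Pancreatic acinar genes stood far above the WT day 0 mean on 4 arrays: by 13.39 and 13.76 in Card9-/- day 7 replicates 2 and 3, by 12.78 in replicate 1 of Card9-/- day 12, and by 7.51 in replicate 5 of WT day 12. Hox genes of the proximal colon stood above it on 3 arrays, by 2.58 and 2.20 in replicates 1 and 2 of Card9-/- day 0 and by 3.04 in replicate 1 of WT day 7. Arrays lay on 4 slides, with no slide holding a single group.

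The promoters of 5 members are shown because these genes were called at day 7 in Card9-/- colon, 4 upward and 1 downward. In WT, Col3a1 and Adamts14 were not called at day 7. Each is the 250 bases upstream of the gene's start, 5′ to 3′ on the gene's strand, from RefSeq on GRCm38.p6. Capitals mark matches, on either strand, to the motif of the TATA box (TATAAA), of the CCAAT box (CCAAT), of the GC box (GGGCGG) or of the AP-1 element (TGANTCA).
Adamts1 (chr16:85803114-85803363, minus strand): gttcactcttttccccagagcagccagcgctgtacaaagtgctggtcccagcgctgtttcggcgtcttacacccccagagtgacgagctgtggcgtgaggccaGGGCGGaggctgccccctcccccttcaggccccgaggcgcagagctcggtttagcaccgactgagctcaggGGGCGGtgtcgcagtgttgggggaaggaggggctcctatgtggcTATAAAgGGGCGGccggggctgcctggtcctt
Adamts9 (chr6:92943535-92943784, minus strand): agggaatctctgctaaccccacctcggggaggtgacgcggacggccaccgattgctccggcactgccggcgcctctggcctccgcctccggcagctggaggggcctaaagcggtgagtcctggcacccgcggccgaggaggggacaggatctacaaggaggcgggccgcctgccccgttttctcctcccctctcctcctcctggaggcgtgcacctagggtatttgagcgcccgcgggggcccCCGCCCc
Adamts14 (chr10:61273420-61273669, minus strand): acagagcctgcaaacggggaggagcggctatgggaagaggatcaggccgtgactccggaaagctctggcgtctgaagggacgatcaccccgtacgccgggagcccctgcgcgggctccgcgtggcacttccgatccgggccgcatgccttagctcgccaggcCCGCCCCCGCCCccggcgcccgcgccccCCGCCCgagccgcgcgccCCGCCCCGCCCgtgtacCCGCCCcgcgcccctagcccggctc
Col3a1 (chr1:45311288-45311537, plus strand): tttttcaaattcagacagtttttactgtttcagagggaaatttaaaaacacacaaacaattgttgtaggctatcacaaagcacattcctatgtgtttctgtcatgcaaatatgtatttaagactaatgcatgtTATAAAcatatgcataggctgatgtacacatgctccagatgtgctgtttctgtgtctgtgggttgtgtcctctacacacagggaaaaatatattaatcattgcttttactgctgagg
Col8a1 (chr16:57754738-57754987, minus strand): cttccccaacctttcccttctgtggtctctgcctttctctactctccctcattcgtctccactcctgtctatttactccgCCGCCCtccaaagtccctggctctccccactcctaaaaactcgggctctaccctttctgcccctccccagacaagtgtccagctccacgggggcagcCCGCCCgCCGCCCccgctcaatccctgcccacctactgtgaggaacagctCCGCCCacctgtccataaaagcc

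Adamts1 held TATAAA 1 time and GGGCGG 3 times, while Adamts14 held GGGCGG 6 times, Adamts9 1 time and Col8a1 4 times. Col3a1 held TATAAA 1 time and no GGGCGG. A promoter was matched for 36 of the 54 members. GGGCGG occurred upstream of 25 of these 36 members, counted by gene. Counted by window, it occurred in 32.7% of all 32851 windows of the same length. TATAAA occurred in 4 of 36 against 12.4%, CCAAT in 11 of 36 against 33.8%, and TGANTCA in 1 of 36 against 6.75%. GGGCGG was present upstream of Adamts1, Adamts9 and Adamts14, which rose in Card9-/- colon at day 7, and upstream of Col8a1, which fell there. These matches are a description of the letters in the window.

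**Figure D1:**
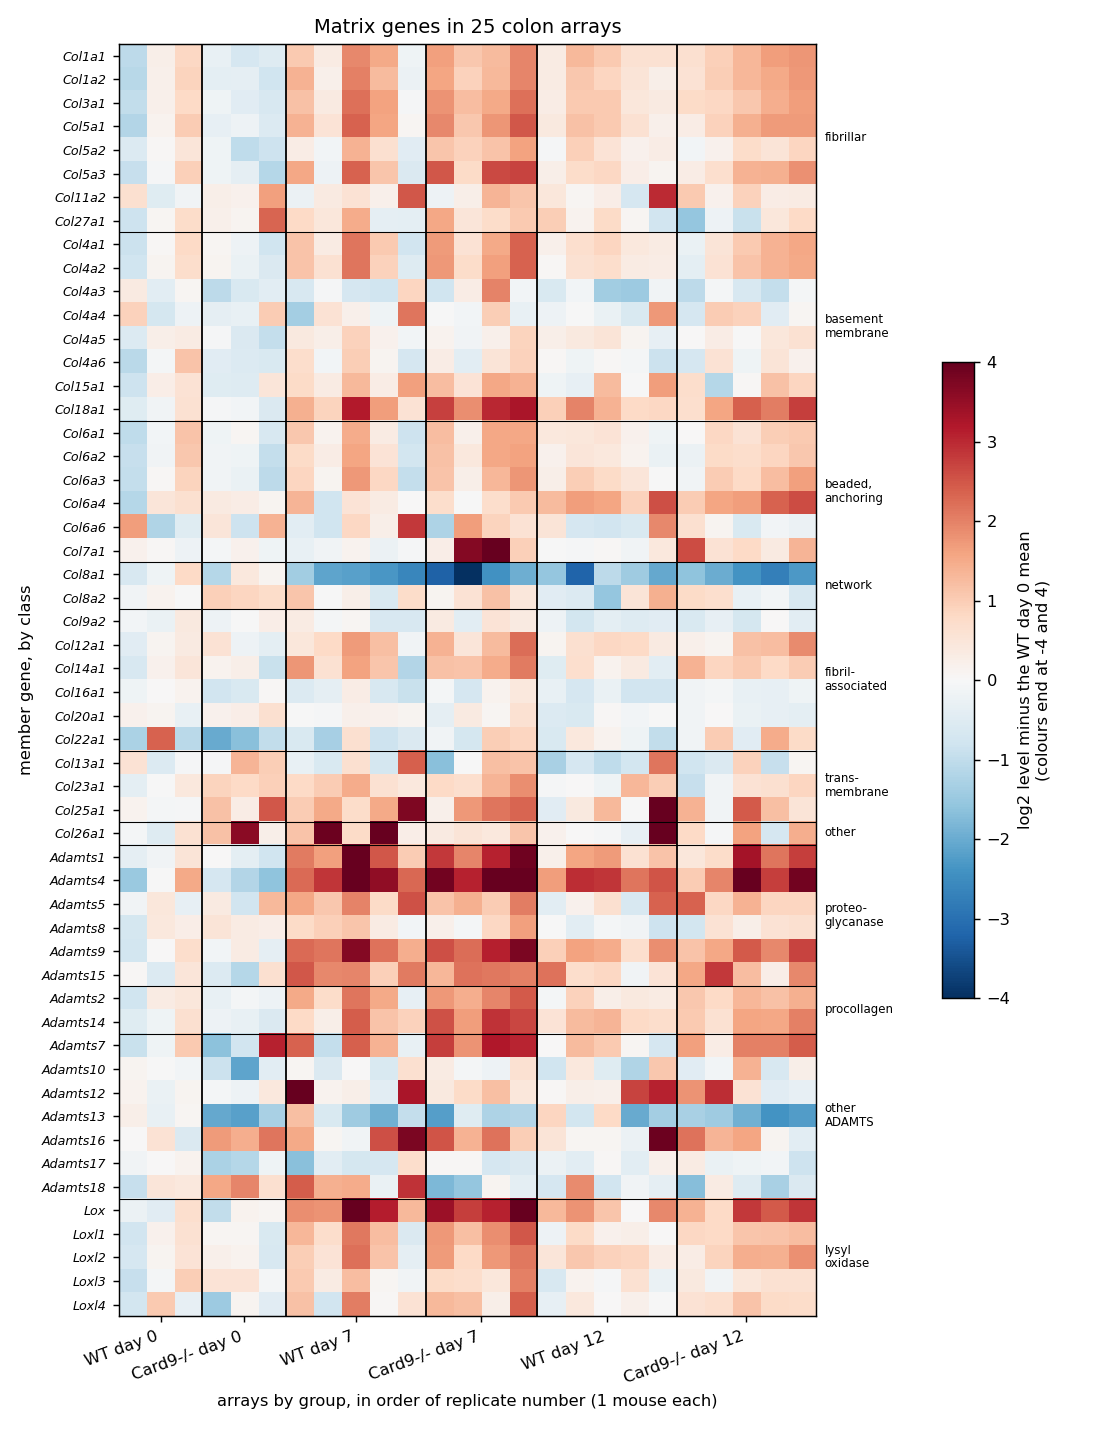
Levels of the 54 members (rows, by class) on the 25 arrays (columns, by group and replicate), as log2 level minus the mean of the 3 WT day 0 arrays. Adamts4, Adamts9, Adamts1 and Lox are red on every day 7 array, Col8a1 is blue on every day 7 and day 12 array, and many collagens are red on all 4 Card9-/- day 7 arrays.

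WT colon at day 7 was set against WT colon at day 0, to show the members' response to DSS itself. Of the 54 members, 5 rose and 1 fell, where 4.32% of all genes tested were called (2.01% rose and 2.31% fell). The risers were the proteoglycan-cutting proteases Adamts4, Adamts9, Adamts1 and Adamts15 and the cross-linking enzyme gene Lox, and the gene that fell was Col8a1, a short-chain collagen of vessel walls and of Descemet's membrane. The median difference of the members was 0.78, against 0.03 over all genes, and 45 of 54 members had a difference above 0. At an unadjusted p under 0.05, 15 members were higher and 1 lower, where 7.17% of all genes were higher and 9.83% lower.

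Adamts4, an aggrecanase, lay at -3.81, -2.35 and -0.82 on the WT day 0 arrays and at -0.05, 0.54, 2.82, 1.23 and -0.04 at day 7. Every day 7 array was above every day 0 array. The difference was 3.23 ± 0.73 (SE; adjusted p = 0.0139, limma), or 9.36-fold.

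Adamts9, a protease of versican that also works in blood vessel growth, lay at -5.20, -4.48 and -3.76 at day 0 and at -2.21, -2.33, -0.80, -2.31 and -3.03 at day 7, again without overlap. The difference was 2.35 ± 0.45 (adjusted p = 0.00537, limma), with 2 of the 3 day 0 arrays well above background. Under normexp background correction the difference was 1.19, and it was 1.16 in the deposited series table, both past the threshold.

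Adamts1, the first ADAMTS protease described and a versican-cutting enzyme, lay at -3.15, -2.93 and -2.24 at day 0 and at -0.68, -1.14, 1.21, -0.30 and -1.76 at day 7. Replicate 3 was the highest day 7 array, as it was for Adamts4 and Adamts9. The difference was 2.24 ± 0.64 (adjusted p = 0.0486, limma), and it stayed past the threshold in 5 of 19 alternative settings. Adamts15 lay at -0.48, -1.07 and -0.03 at day 0 and at 1.95, 1.38, 1.43, 0.42 and 1.56 at day 7. Its difference was 1.88 ± 0.52 (adjusted p = 0.0428, limma), and past the threshold in 8 of 19 alternative settings.

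Lox, the founding lysyl oxidase, exceeded background clearly on 0 of 3 arrays at WT day 0 and on 2 of 5 at day 7. Its measured levels were -6.64, -6.86 and -5.72 at day 0 and -4.56, -4.62, -1.72, -3.25 and -5.09 at day 7. By the group mean, day 7 was at least 1.81-fold brighter (log2 difference 2.56 ± 0.64, adjusted p = 0.0263, limma). Here the bound sets the dim day 0 arrays at the lowest signal of any probe above background. Day 7 arrays that were not well above background kept their measured levels, so it is a bound on the day 0 side and not for single arrays. Replicates 3 and 4 were the highest day 7 arrays. Normexp correction gave a log2 difference of 0.92. Loxl1, Loxl2, Loxl3 and Loxl4 differed by 0.95, 0.91, 0.52 and 0.62, and none of these 4 passed the test.

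Col8a1 lay at -1.39, -0.91 and 0.05 at day 0 and at -2.15, -2.85, -2.91, -3.08 and -3.37 at day 7, with no overlap. The difference was -2.12 ± 0.51 (adjusted p = 0.0209, limma), or 4.35-fold lower, and -1.32 with normexp correction. It was the single called collagen among 34. Col8a2, whose product is the partner chain of type VIII collagen, differed by 0.29 (adjusted p = 0.81, limma).

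The structural collagens of WT colon did not pass the test at day 7. The 8 fibrillar chains all had differences above 0, with a median of 0.89 and a range of 0.36 to 1.19. Col3a1, the fibrillar collagen of extensible tissues, lay at 2.00, 3.18 and 3.79 at day 0 and at 4.17, 3.34, 5.19, 4.59 and 2.94 at day 7. The groups overlapped, with day 7 replicates 2 and 5 below the highest day 0 array, and the difference was 1.05 ± 0.42 (adjusted p = 0.186, limma). Col1a1 and Col1a2, the chains of type I collagen, differed by 0.92 each (adjusted p = 0.267 and 0.297, limma). Col18a1, the source of endostatin, differed by 1.54 ± 0.50 (adjusted p = 0.0875, limma).

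WT calls rested on few arrays. Counts from refits, here and below, are given without the share of all genes called in the same refit. Without WT day 0 replicate 1 or replicate 2, 1 member was called. Without WT day 0 replicate 3, or without WT day 7 replicate 3, 3 were called, and with WT day 7 replicate 5 left out, 8. When the fit held the WT day 0 and day 7 arrays alone, 0 members were called. Without the 3 arrays with proximal Hox genes the count was 4, and without the 4 with acinar genes 5. On the 3 slides that hold WT arrays of both days, the median difference of the members ran from -0.36 to 1.19. It was positive on 2 of them, and the value of -0.36 came from slide 3, with 1 array of each day.

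**Figure D2:**
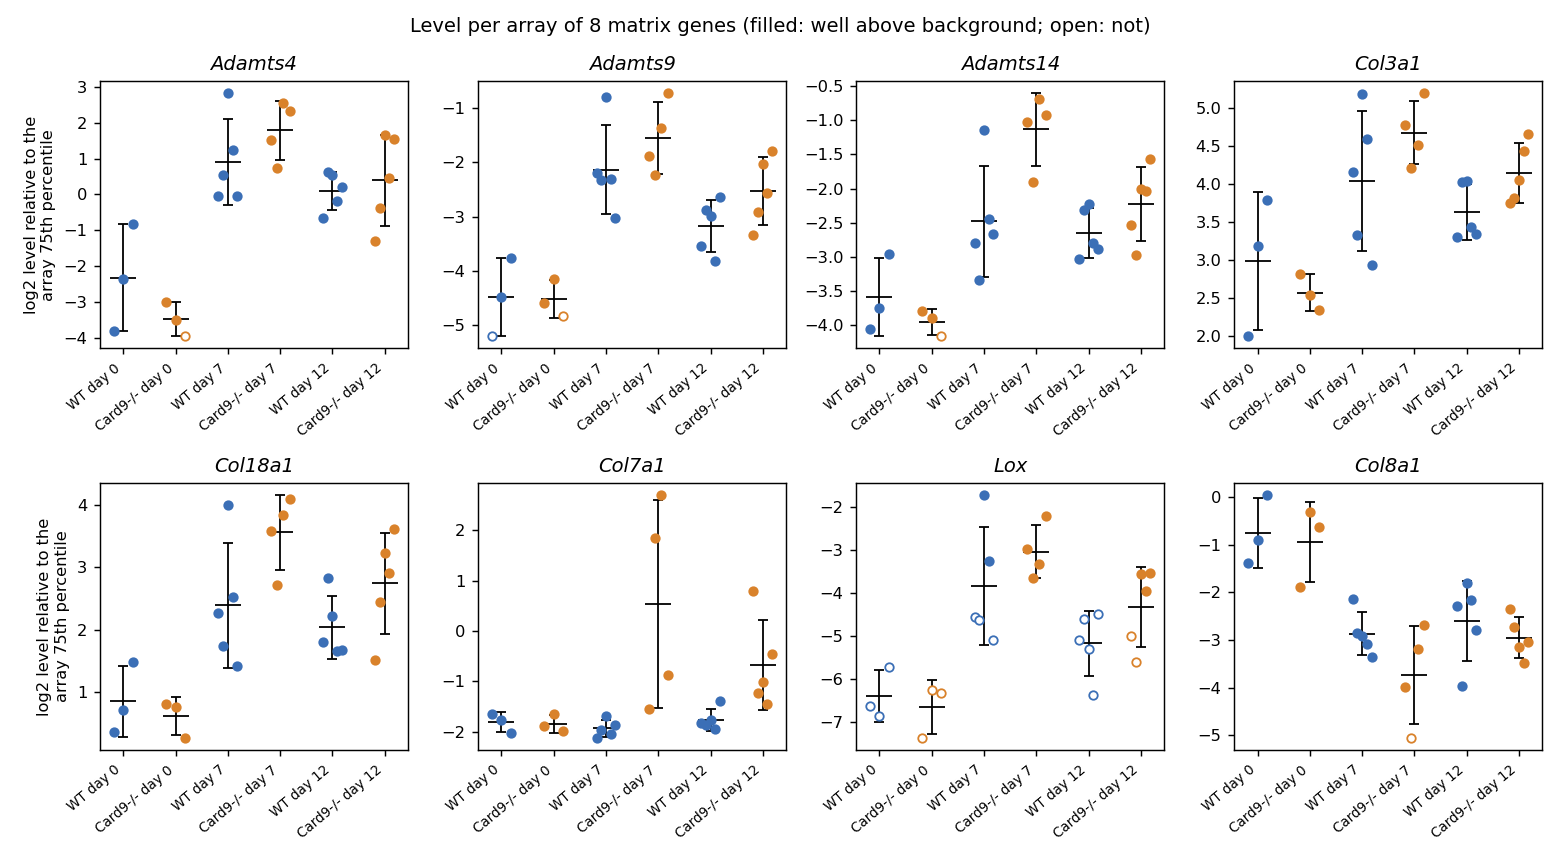
Log2 level relative to the array's 75th percentile of 8 members on each array, by group, with the mean and SD in black. Filled points were well above background and open points were not. Adamts4, Adamts9 and Lox are higher on every day 7 array than on every day 0 array, Col8a1 is lower, and Col7a1 is highest on Card9-/- day 7 replicates 2 and 3, at 1.85 and 2.71.

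In Card9-/- colon, the same 7 days of DSS were followed by calls in more members. Of 54, 25 rose and 2 fell, where 19.6% of all genes tested were called (6.9% rose and 12.7% fell). The 25 were 15 collagens, 6 ADAMTS genes and 4 lysyl oxidases, and the 2 that fell were Col8a1 and Adamts18. The median difference of the members was 1.35, against -0.08 over all genes, and 47 of 54 differences were above 0.

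Among the proteoglycan-cutting proteases, 4 of 6 rose. Adamts4 lay at -2.99, -3.50 and -3.94 on the Card9-/- day 0 arrays and at 1.52, 0.74, 2.55 and 2.33 at day 7. The nearest arrays of the 2 groups were 0.74 and -2.99, and the difference was 5.26 ± 0.76 (adjusted p = 8.77e-05, limma). Adamts4 was well above background on 2 of the 3 day 0 arrays, so no fold is given, and normexp correction gave 3.89. Adamts9 rose by 2.96 ± 0.47 (adjusted p = 0.000219, limma; 1.47 with normexp correction), from -4.59, -4.15 and -4.83 to -1.89, -2.24, -1.37 and -0.73. Adamts1 rose by 3.33 ± 0.67 (adjusted p = 0.00135, limma) and Adamts15 by 2.26 ± 0.54 (adjusted p = 0.00545, limma). All 4 did so without overlap of the arrays. Adamts5, the main aggrecanase of mouse cartilage, differed by 1.11 ± 0.60 and Adamts8 by 0.29 ± 0.39, and neither was called.

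Both measured procollagen N-proteinases rose. Adamts14 lay at -3.79, -3.89 and -4.16 at day 0 and at -1.03, -1.90, -0.69 and -0.92 at day 7. That is a difference of 2.81 ± 0.41 (adjusted p = 0.000101, limma), and the arrays of the 2 days did not overlap. Of the 3 day 0 arrays, 2 were well above background for Adamts14. Adamts2, which acts on type I, II and III procollagen, rose by 2.09 ± 0.41 (adjusted p = 0.00124, limma). Under normexp correction the Adamts14 difference was 1.56, still past the threshold.

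Of the 8 fibrillar collagen chains, 6 rose: Col1a1, Col1a2, Col3a1, Col5a1, Col5a2 and Col5a3. Col3a1 lay at 2.83, 2.55 and 2.35 at day 0 and at 4.78, 4.22, 4.52 and 5.20 at day 7, a difference of 2.10 ± 0.44 (adjusted p = 0.00207, limma). Col1a1 lay at 1.96, 1.57 and 1.74 and then at 3.88, 3.32, 3.52 and 4.22, a difference of 1.98 ± 0.44 (adjusted p = 0.00335, limma). Day 0 and day 7 arrays were separate for both genes. Col1a2 rose by 1.95 ± 0.46 and the type V chains by 2.16 (Col5a1), 1.88 (Col5a2, 1.05 with normexp correction) and 2.71 (Col5a3). Type V collagen sits inside type I fibrils and sets their width. The other fibrillar chains, Col11a2 and Col27a1, differed by -0.06 and 0.06.

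Of 8 basement membrane and multiplexin collagens, 3 rose. Col18a1 lay at 0.81, 0.75 and 0.26 at day 0 and at 3.59, 2.72, 3.85 and 4.11 at day 7, with no overlap. The difference was 2.96 ± 0.52 (adjusted p = 0.000523, limma), or 7.78-fold, the largest rise among the 34 collagens. Col4a1 and Col4a2, the ubiquitous chains of type IV collagen, rose by 1.84 ± 0.55 and 1.86 ± 0.51 (adjusted p = 0.0214 and 0.0135, limma). The tissue-restricted chains Col4a3, Col4a4, Col4a5 and Col4a6 differed by 1.03, 0.02, 0.80 and 0.87, and none passed the test.

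Type VI collagen and fibril-associated chains also moved. Col6a1, Col6a2 and Col6a3, which together make the classical type VI molecule, rose by 1.38, 1.61 and 1.61. Col6a4 differed by 0.36 and was not called. Col12a1 and Col14a1, whose products coat fibrils, rose by 1.34 and 1.63, and for Col12a1 the day 0 and day 7 arrays overlapped. Of 3 transmembrane collagens, 0 were called, and their differences ranged from -0.61 to 0.30.

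Col7a1 was uneven among the Card9-/- day 7 arrays. Its levels were -1.89, -1.65 and -1.99 at day 0 and -1.54, 1.85, 2.71 and -0.86 at day 7. The high arrays, replicates 2 and 3, were those with pancreatic acinar genes, and at day 12 the highest array, replicate 1 at 0.79, was the acinar one there. In WT day 12 the array with acinar genes, replicate 5, was also the highest, at -1.39. The difference was 2.38 ± 0.68 (adjusted p = 0.0171, limma), and without the 4 acinar arrays it was 0.64 ± 0.24 and not called (adjusted p = 0.0893, limma). It also missed the threshold without Card9-/- day 7 replicate 2 (1.95) or replicate 3 (1.66), which are acinar arrays.

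Of 5 lysyl oxidase genes, 4 rose. The filter kept genes with a probe well above background on at least 3 arrays, so it used the same values as the test. By the probe that stands for the gene, Lox was well above background on 9 arrays and Loxl4 on 3. A gene kept through its bright arrays alone was more likely to show a rise, so Lox and Loxl4 weigh less in this count. Loxl1 and Loxl2 were well above background on every array. Lox was not well above background on any Card9-/- day 0 array (-7.37, -6.25 and -6.33) and was so on all 4 at day 7 (-2.97, -3.64, -3.33 and -2.21). By the processed signal it was at least 3.04-fold brighter at day 7 (log2 difference 3.62 ± 0.67, adjusted p = 0.000805, limma). That bound did not hold with normexp correction, where the log2 difference was 1.06 and still called. Loxl1, needed for elastic fibres, lay at -1.09, -1.11 and -1.80 and then at 0.55, 0.03, 0.68 and 1.31, a difference of 1.98 ± 0.44 (adjusted p = 0.00329, limma). Loxl2, which acts on type IV collagen, rose by 1.68 ± 0.46 (adjusted p = 0.0132, limma). Loxl4 was at least 1.17-fold brighter by the group mean, which includes dim day 7 arrays at their measured levels. It had a probe above background on 2 of 4 day 7 arrays, and with normexp correction its difference was 0.59 and not called. Loxl3 differed by 0.64 ± 0.43 and was not called.

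Col8a1 fell. It lay at -1.88, -0.32 and -0.63 at day 0 and at -3.99, -5.06, -3.19 and -2.69 at day 7, with no overlap. The difference was -2.79 ± 0.54 (adjusted p = 0.000998, limma), with 3 of the 4 day 7 arrays well above background, and -1.40 with normexp correction, still called. Adamts18, an orphan protease of this family, lay at -2.60, -2.21 and -3.50 and then at -5.95, -5.70, -4.04 and -4.53, and was above background on 1 of 4 day 7 arrays. Its difference was -2.28 ± 0.71 (adjusted p = 0.0267, limma). The highest day 0 arrays, replicates 2 and 1, carried proximal Hox genes, and without the 3 proximal arrays the difference was -1.55 and not called (adjusted p = 0.498, limma). That fit has 1 Card9-/- day 0 array, which is assumed to vary like the other groups. Normexp correction gave -0.57.

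The Card9-/- day 7 count was lower without particular arrays. Without the 4 acinar arrays 23 members were called, and without the 3 proximal arrays, which leaves 1 Card9-/- day 0 array, 9 were called with a median difference of 1.14. Of the 20 called members recomputed under each alternative, 9 were called in every one: Adamts1, Adamts4, Adamts9, Adamts14, Col18a1, Col5a2, Col5a3, Col8a1 and Loxl1. On the 2 slides that hold both Card9-/- groups, the median difference of the members was 1.22 and 1.65.

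**Figure D3:**
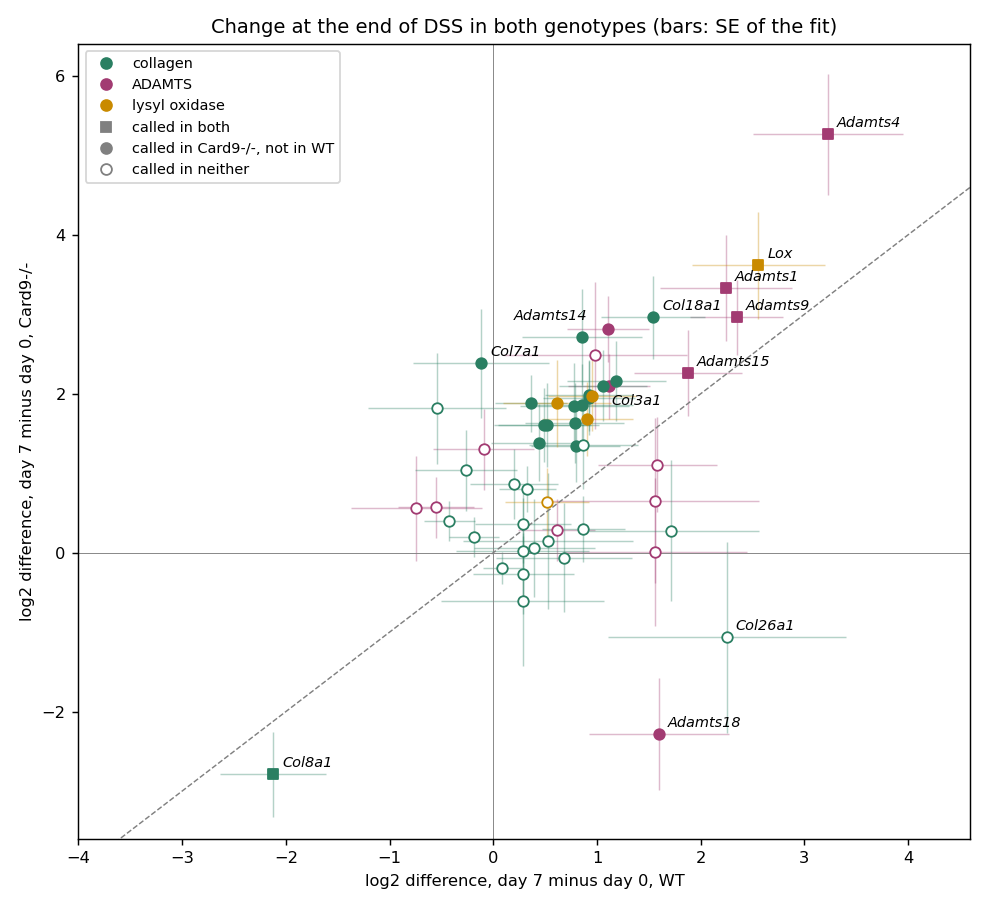
Log2 difference between day 7 and day 0 of the 54 members in WT (horizontal) and Card9-/- (vertical), with the SE of each difference and the line of equal change. Squares were called in both genotypes, filled circles in Card9-/- and not in WT, and open circles in neither. Adamts4 lies farthest up at 3.23 and 5.26, and Col8a1 lies at -2.12 and -2.79.

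The WT and Card9-/- day 7 comparisons use separate day 0 arrays. All 5 members that rose in WT also rose in Card9-/- colon, which is 5 of 5 of the WT list and 5 of 25 of the Card9-/- list, and Col8a1 fell in both. The same overlap over all genes was not counted, and both comparisons take each gene's spread from the same model. The overlap therefore cannot be read as particular to the members. Members that were called in Card9-/- and not in WT cannot be taken as differing between genotypes from those calls alone, so the difference in change was tested. Of 54 members, 0 had a called difference in the change from day 0 to day 7, where 0.00392% of all genes did. At an unadjusted p under 0.05, 7 members were higher in Card9-/- and 1 lower, where 4.39% of all genes were higher and 7.17% lower. The median difference in change was 0.83 against -0.11 over all genes.

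The smallest p for that difference in change belonged to Adamts18 (-3.88 ± 0.98, adjusted p = 0.222, limma), Col5a2 (1.52 ± 0.50, adjusted p = 0.264) and Adamts14 (1.71 ± 0.57, adjusted p = 0.27). Adamts18 differed by 1.60 between day 7 and day 0 in WT, where it was not called, and by -2.28 in Card9-/- colon. Its difference in change ran from -4.34 to -1.38 in alternative settings. The groups compared include the 3 arrays with proximal Hox genes, replicates 1 and 2 of Card9-/- day 0 and replicate 1 of WT day 7. Col5a2 lay at -2.64, -3.05, -1.55, -2.30 and -3.40 in WT day 7 and at -1.83, -2.02, -1.82 and -1.34 in Card9-/- day 7. The Card9-/- arrays lay within the WT range except replicate 4. Without WT day 7 replicate 3, 2 members were called for the difference in change.

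At day 7 itself, 0 of 54 members were called between Card9-/- and WT, where 0.145% of all genes were higher and 0.404% lower. At an unadjusted p under 0.05, 8 members were higher and 1 lower, where 5.97% of all genes were higher and 10.5% lower. The members' median was 0.53 against -0.06 over all genes. Adamts14 lay at -2.79, -3.34, -1.15, -2.45 and -2.67 in WT and at -1.03, -1.90, -0.69 and -0.92 in Card9-/- colon. WT replicate 3 fell among the Card9-/- arrays, and the difference was 1.34 ± 0.36 (adjusted p = 0.076, limma). Col7a1 was 2.47 ± 0.60 higher (adjusted p = 0.0607, limma), and 0.73 without the acinar arrays. Adamts18 was 2.50 lower on the log2 scale (difference -2.50 ± 0.62, adjusted p = 0.063, limma), with overlapping arrays. That difference ran from -2.96 to -0.73 in alternative settings, and WT day 7 replicate 1 carried proximal Hox genes.

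WT day 7 replicate 3 weighed on this comparison. Without it 6 members were called between genotypes, and without Card9-/- day 7 replicate 1, 1 member was. The share of all genes called in these refits is not given, so the changed counts cannot be taken as particular to the members. The mean of WT day 7 replicate 3 over the 54 members stood 1.36 above the WT day 0 mean. The other WT day 7 arrays stood 0.37 to 0.90 above it. The 4 Card9-/- day 7 arrays stood 0.71 to 1.56 above it. Within the 4 slides, the median difference between genotypes at day 7 ran from -0.22 to 1.16 and was positive on 3.

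Before DSS, 0 of 54 members were called between genotypes, where 0.00392% of all genes were higher and 0% lower. Unadjusted, 0 were higher and 4 lower at p under 0.05, where 2.83% of all genes were higher and 2.15% lower. The smallest p belonged to Adamts13, the protease of von Willebrand factor, which was above background on 1 WT and 0 Card9-/- arrays. Adamts17 and Col22a1 followed, and the adjusted p of these 3 ranged from 0.836 to 0.998 (limma). The members' means lay between -0.14 and 0.02 of the WT day 0 mean on the 3 Card9-/- arrays, of which 2 carried proximal Hox genes. The WT day 0 arrays spread more, from -0.44 to 0.41.

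Recovery was measured as day 12 against day 7. In WT, 0 of 54 members were called, where 0.365% of all genes rose and 0.122% fell. In Card9-/- colon 0 of 54 were called as well, where 7.69% of all genes were called (5.72% rose and 1.97% fell). The members' median difference was -0.39 in WT and -0.51 in Card9-/-, against 0.01 and 0.02 over all genes. At an unadjusted p under 0.05, 1 member was higher and 8 lower in WT, where 8.73% of all genes were higher and 4.39% lower. In Card9-/- colon 1 was higher and 9 lower, where 15.6% of all genes were higher and 7.16% lower. All 5 lysyl oxidase genes had a difference below 0 in both genotypes.

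The smallest p in WT recovery belonged to Col6a4, Adamts8 and Adamts18. Col6a4, a type VI chain expressed in mice, lay at -1.82, -3.96, -2.63, -2.83 and -3.17 at day 7 and at -1.91, -1.49, -1.58, -2.24 and -0.58 at day 12. Its difference was 1.32 ± 0.40 (adjusted p = 0.144, limma), against the direction of most members. In Card9-/- colon Col6a4 moved by 1.24 ± 0.43 (adjusted p = 0.0797), Adamts14 by -1.09 ± 0.36 (adjusted p = 0.0704) and Col9a2 by -0.63 ± 0.22 (adjusted p = 0.0881). Of 54 members, 0 had a called genotype difference in the change from day 7 to day 12, where 0.00784% of all genes did. There 0 members passed at an unadjusted p under 0.05, where 4.68% of all genes were higher and 3.03% lower (limma).

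At 5 days after DSS ended, some members still differed from day 0 in Card9-/- colon. This comparison uses the same Card9-/- day 0 arrays as the day 7 one. Of 54 members, 12 rose and 1 fell, where 3.7% of all genes rose and 3.24% fell, and the median was 1.01 against -0.03 over all genes. The 12 were Adamts1, Adamts2, Adamts4, Adamts9, Adamts14, Adamts15, Col1a1, Col1a2, Col3a1, Col18a1, Col6a4 and Lox.

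Adamts4 lay at -1.31, -0.37, 1.67, 0.45 and 1.54 at day 12, all above the Card9-/- day 0 arrays, a difference of 3.87 ± 0.73 (adjusted p = 0.00321, limma) beside 5.26 at day 7. Col18a1 lay at 1.52, 2.44, 3.24, 2.90 and 3.63, a difference of 2.14 ± 0.50 (adjusted p = 0.0128, limma) beside 2.96 at day 7. Col1a1 lay at 2.89, 3.21, 3.59, 3.92 and 4.02, and its day 12 difference of 1.77 ± 0.42 (adjusted p = 0.0151, limma) stood beside 1.98 at day 7. In all 3 genes replicate 1 was the lowest day 12 array, and it was an acinar array.

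Col1a2 and Col3a1 rose by 1.73 and 1.57, Adamts14 by 1.73, Adamts9 by 1.99 and Adamts1 by 2.29. Normexp correction gave 0.81 for Adamts14 and 0.85 for Adamts9, both called, and 1.52 for Adamts1, not called. Col6a4, which was not called at day 7, lay at -2.81, -2.86 and -3.06 at day 0 and at -2.14, -1.59, -1.51, -0.81 and -0.56 at day 12. The groups did not overlap, and the difference was 1.59 ± 0.46 (adjusted p = 0.0412, limma), or 1.03 with normexp correction. Lox was at least 1.24-fold brighter than at day 0 by the group mean, and its log2 difference of 2.32 was 0.44 and not called with normexp correction. Col8a1 lay at -2.35, -2.73, -3.15, -3.47 and -3.04 and differed by -2.01 ± 0.51 (adjusted p = 0.0211, limma), or -1.31 with normexp correction.

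The day 12 count depended on which arrays entered the fit. Without Card9-/- day 0 replicate 1, 2 or 3 the count was 3, 2 or 7, and without the 3 proximal arrays, which leaves 1 Card9-/- day 0 array, it was 0. Leaving out Card9-/- day 12 replicate 3 or 4 gave 8, and replicate 5 gave 6. With slide as a block it was 8, and without the 4 acinar arrays 14. The 12 called members recomputed under each alternative, which include Col8a1 and leave out Adamts2, kept their sign. Calls among them ranged from 5 of 17 alternatives for Lox to 18 of 19 for Adamts4.

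In WT at day 12, 0 of 54 members were called against day 0, where 1.13% of all genes rose and 0.6% fell. At an unadjusted p under 0.05, 5 were higher and 2 lower, where 7.53% of all genes were higher and 5.78% lower, so these shares were near the background. The median was 0.37 against 0.03. Col8a1 lay at -2.30, -3.96, -1.80, -2.16 and -2.80, below all 3 day 0 arrays, a difference of -1.85 ± 0.51 (adjusted p = 0.0691, limma). Col6a4 differed by 1.61 ± 0.46 (adjusted p = 0.0823) and Adamts4 by 2.43 ± 0.73 (adjusted p = 0.0963), also without overlap. Between genotypes at day 12, 0 of 54 members were called, where 0.0706% of all genes were called (0.0196% higher and 0.051% lower), and at an unadjusted p under 0.05, 3 were higher and 1 lower, where 2.86% of all genes were higher and 5.99% lower. Adamts13, Adamts2 and Col14a1 had the smallest p there, with adjusted p from 0.445 to 0.49 (limma).

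Some members are neighbours in the genome by the RefSeq gene order, and these pairs were set side by side at day 7 in Card9-/- colon. Col4a1 and Col4a2, which share a start region on chromosome 8, differed by 1.84 and 1.86. Col3a1 and Col5a2 on chromosome 1 differed by 2.10 and 1.88, and Col6a1 and Col6a2 on chromosome 10 by 1.38 and 1.61. Col4a3 and Col4a4 on chromosome 1 differed by 1.03 and 0.02, and Col4a5 and Col4a6 on the X chromosome by 0.80 and 0.87. Adamts1 and Adamts5 on chromosome 16 differed by 3.33 and 1.11, and Adamts15 and Adamts8 on chromosome 9 by 2.26 and 0.29. No gap between neighbours was tested.

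The other genes of matrix assembly were taken from lists of known function. Over all genes at day 7, 2.01% rose and 2.31% fell in WT, and 6.9% rose and 12.7% fell in Card9-/-. Of 17 measured genes of collagen maturation, 3 rose at day 7 in WT and 8 in Card9-/-, with 0 down in both. Plod2, a lysyl hydroxylase that prepares collagen for cross-linking, rose by 1.57 ± 0.35 in WT and 1.54 ± 0.36 in Card9-/-, and Pcolce2, an enhancer of C-terminal trimming, by 1.30 and 1.51. Of 8 ADAMTS-like proteins and TIMP inhibitors, 3 rose in WT and 5 in Card9-/-, led by Timp1 at 2.78 ± 0.62 and 4.69 ± 0.64. Timp3, the TIMP that inhibits ADAMTS enzymes, differed by 0.65 in WT (adjusted p = 0.403) and rose by 1.60 ± 0.39 in Card9-/- (adjusted p = 0.0058, limma).

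Of 21 proteoglycan and glycoprotein genes, 4 rose in WT and 13 in Card9-/- colon, and 0 fell. Lama1, a laminin chain of basement membranes, rose by 2.72 ± 0.60 and 4.77 ± 0.63, and Bgn, a small proteoglycan that binds collagen, by 0.87 and 1.70. Vcan and Acan, the substrates named above, differed by 0.15 and 0.77 in WT and by 0.40 and 0.18 in Card9-/-, and neither was called. Of 12 genes of the TGF-beta axis, 2 rose and 1 fell in WT, and 7 rose and 1 fell in Card9-/-. Inhba, an activin subunit, rose by 2.92 ± 0.77 and 5.60 ± 0.81, while Smad7, an inhibitor of TGF-beta signalling, fell by 0.56 and 0.98 on the log2 scale.

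Markers of several cell types changed too, and not all in the members' direction. The shares over all genes at day 7 were 6.9% up and 12.7% down in Card9-/-, and 2.01% up and 2.31% down in WT. At day 7 in Card9-/- colon 6 of 8 fibroblast markers rose (list median 1.57), 7 of 8 endothelial markers rose (1.55), and 2 of 8 smooth muscle markers, Actg2 and Des, fell (-1.05). In WT 1 of 8 fibroblast markers rose (0.70), and 0 of 8 endothelial and 0 of 8 smooth muscle markers were called. Lum and Dcn belong to both the fibroblast and the proteoglycan list. The mean of the fibroblast list per array stood -0.24 to 1.74 from the WT day 0 mean in WT day 7 and 1.13 to 1.87 above it in Card9-/- day 7, and the smooth muscle list stood at -1.57 to 0.98 and -1.38 to -0.10. Immune and blood markers rose as well: in Card9-/- day 7, 6 of 7 macrophage (list median 2.74), 6 of 7 neutrophil (7.82) and 4 of 4 red blood cell markers (4.08) rose. In WT day 7 these counts were 1 of 7 (1.18), 5 of 7 (4.88) and 0 of 4 (0.43). Of 9 epithelial markers, 1 fell in WT and 2 in Card9-/- colon. In both genotypes 0 of 8 enteric neuron and glia, 0 of 4 mesothelial and 0 of 4 adipocyte markers were called at day 7. At day 12 against day 0 in Card9-/- colon 3 of 8 fibroblast, 1 of 8 endothelial, 6 of 7 macrophage and 4 of 7 neutrophil markers rose. There 3.7% of all genes rose. The part of these cell types in the members' differences was not tested.

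**Figure D4:**
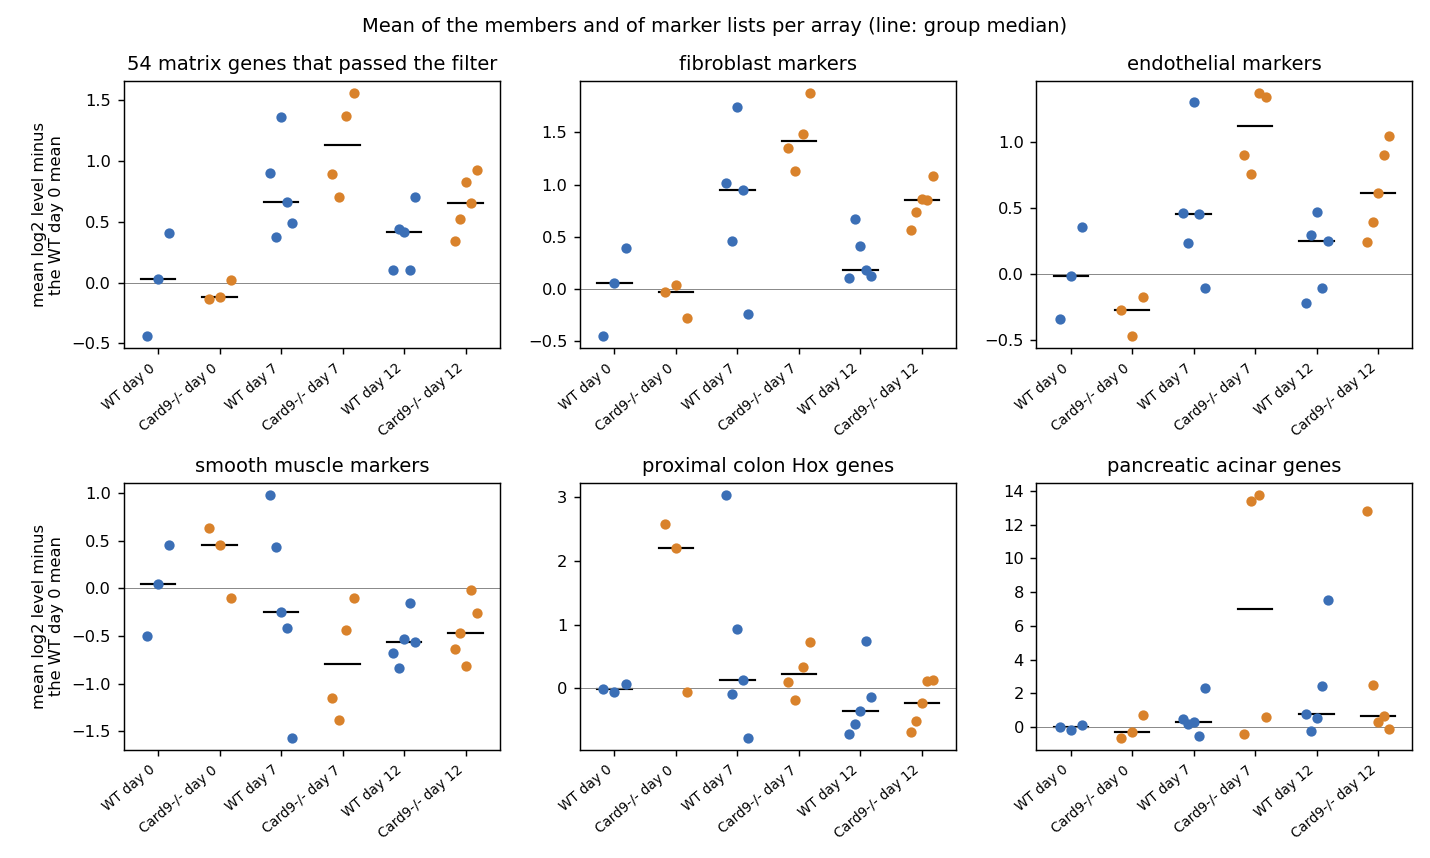
Mean log2 level per array, minus the WT day 0 mean, of the 54 members and of 5 marker lists, with the group median as a line. The members' mean stands 0.71 to 1.56 above WT day 0 on the Card9-/- day 7 arrays, where the fibroblast list stands 1.13 to 1.87 above it, and the acinar list exceeds 7 on 4 arrays.

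The other 14 member genes on the array did not pass the filter: Adamts3, Adamts6, Adamts19, Adamts20, Col2a1, Col6a5, Col9a1, Col9a3, Col10a1, Col11a1, Col17a1, Col19a1, Col24a1 and Col28a1. Of these, 5 were well above background on 2 arrays, 2 on 1 array and 7 on 0. By the probe that stands for the gene, 6 members were just inside the limit, on 4 arrays or fewer: Col6a6, Loxl4, Adamts13, Col13a1, Col22a1 and Col26a1. By the same probe, 27 of the 54 were above it on all 25. A member that passed through its bright arrays alone was more likely to show a difference, so the counts over 54 are no measure of the 68.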

How the data were processed

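Colon RNA was hybridised to one-colour Agilent arrays. The authors deposited scanner output, in which Feature Extraction 10.7.3.1 (per the submitters' processing notes) gives a processed intensity per spot, and the deposited series table holds the authors' own log2 values, used as an alternative. Control spots and outlier flags were left out, log2 of the intensity was set against each array's 75th percentile, and spots of one probe were averaged. Probes well above background on at least 3 arrays were kept, with the brightest probe standing for a gene. One limma 3.58.1 model (R 4.3.3) with 6 group means was fitted to all genes. It was also run on simulated arrays with independent noise, which hold no slide, acinar or colon position effect. That run cannot show how the model handles such effects. The members and gene lists were chosen with earlier results of these data known. Named members, recomputed under every alternative, are per comparison the 8 called members with the largest difference, those called against the prevailing direction, the called member with the smallest p of each class and a set of key collagen, ADAMTS and lysyl oxidase genes, or, with none called, the 3 with the smallest p. From each other list, the 2 genes with the smallest p were named; Timp3, Pcolce2, Bgn, Vcan, Acan and Smad7, where outside that, and the further members given were chosen after their values were seen. Alternatives were normexp correction, quantile scaling, other filters, slide and replicate blocks, and leaving out arrays. Replicate numbers were not used to pair the mice in the main fit: 15 of 54 same-numbered pairs of arrays correlated above 0.1. Their correlations ran from -0.44 to 0.68 with a median of 0.04, against a median of 0.01 for other pairs. These values do not settle whether some mice were paired. The number of arrays limits the precision.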

Additional observations from a re-analysis of the deposited data

Results flagged for a closer look

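In each group of 4 or 5 arrays, the gap from the highest or lowest array to its nearest neighbour was set against Dixon's critical value. Of 120 such groups over 30 genes, 2 passed, where chance gives about 1 in 20 groups. Adamts18 in WT day 12 replicate 2 lay at -2.27, with its nearest neighbour at -4.29 and the lowest array at -4.93, a gap of 0.762 of the range. Col5a3 in Card9-/- day 7 replicate 2, an array with pancreatic acinar genes, lay at -0.42, with its nearest neighbour at 1.29 and the highest at 1.51, a gap of 0.889 of the range.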

How the results depend on the processing

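Among the named members, which do not include every called member, no called value changed sign in a refit. The members' median difference at day 7, 0.78 in WT and 1.35 in Card9-/- in the main fit, stayed above 0 in both genotypes. Within single slides that median was above 0 on 2 of 3 slides in WT and on 2 of 2 in Card9-/-. The counts that follow are given without the share of all genes called in the same refit, so their changes cannot be taken as particular to the members. The count of called members at day 7 in WT (6) was 3 with quantile scaling, 0 with the contrast's groups alone and 1 to 8 with 1 array left out. In Card9-/- (27) it was 9 without the 3 proximal arrays (1 Card9-/- day 0 array left, assumed to vary like the other groups) and 19 to 26 with 1 array left out. For day 12 against day 0 in Card9-/- (13) it was 8 with slide as a block, 0 without the proximal arrays and 2 to 15 with 1 array left out. Counts of 0 became 1 in WT recovery with the Hox covariate. In Card9-/- recovery they became 2 with normexp, 1 with the series table, the replicate block or the Hox covariate, and 0 to 2 with 1 array left out. In WT at day 12 against day 0 they became 1 with normexp, the series table, the slide block or the Hox covariate. Between genotypes at day 7 they became 2 with the series table or the filter of 13 arrays, 1 with the slide block and 0 to 6 with 1 array left out, and 0 to 2 for the difference in change to day 7. The cause was not tested. The replicate block gave 5 calls in WT and 27 in Card9-/- at day 7, and 12 at day 12 in Card9-/-. Dim probes such as Lox give bounds only.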
